A study of Mus musculus with 8 samples.

Results

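The regions described here are stretches of open chromatin that regulatory T cells (Treg) showed both inside a tumour and in the spleen. They were found as autosomal spleen ATAC peaks that touched a tumour ATAC peak by at least 1 bp, and each was paired with the touching tumour peak of highest normalized tag count. This gave 10871 pairs, which held 84.9% of the 12800 autosomal spleen peaks and 40.2% of the 27012 autosomal tumour peaks. The complete deposited lists held 27655 tumour peaks and 13089 spleen peaks, so 16128 autosomal tumour peaks and 1929 autosomal spleen peaks stayed outside the pairs, besides 13 further tumour peaks that touched an already paired spleen peak. Because the pairs were chosen by their presence in both lists, that presence is a description and not a result.

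The study compared tumour Treg with spleen Treg by ATAC, and tumour Treg of JMJD1CTregcKO mice with tumour Treg of JMJD1CWT mice by H3K9me2 CUT&RUN. ATAC had 1 library from tumour Treg and 1 library from spleen Treg, both of genotype JMJD1CWT. CUT&RUN had 3 libraries of tumour Treg from JMJD1CTregcKO mice (cKO) and 3 of tumour Treg from JMJD1CWT mice (WT), and none from spleen. All mice were C57BL/6 and 8 to 12 weeks old. Cells were enriched on magnetic beads and then sorted on a fluorescence signal. The tumour type, the driver of the Treg-specific deletion, the number of mice behind a library and whether mice were pooled are not given in the sources used here. The protocol entered for both ATAC libraries names a CUT&Tag kit.

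ATAC marks DNA that a transposase can reach, which in a nucleus is mainly promoters and enhancers freed of nucleosomes. Promoters of widely used genes are open in most cell types, whereas enhancers tend to be open in particular cell types or states. Treg are CD4 T cells that restrain immune responses under the transcription factor FOXP3. In lymphoid organs many are in a resting, recirculating state kept by factors such as TCF7, LEF1 and BACH2, and in tumours many are in an effector state that depends on BATF, IRF4 and AP-1 factors and shows surface proteins such as CCR8 and 4-1BB (Tnfrsf9). JMJD1C belongs to the KDM3 family of enzymes linked to removal of methyl groups from lysine 9 of histone H3, and H3K9me2 is a mark of less active chromatin.

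The promoter sequences below show the range of the shared pairs. The windows run from 250 bases before to 50 bases after a gene's start, and come from RefSeq on GRCm38.p6. Each overlapped the tumour peak of its pair by at least 150 bp. Capitals mark every match, on either strand, to 4 short letter patterns: TGANTCA (AP-1), CCGGAAG (ETS), GATTGG (NF-Y) and TGACGTN (CREB and ATF). A match is a description of the letters and not a bound site. The first 3 windows belong to the named pairs that were strongest in both libraries and had such a window: Dnpep, an aspartyl aminopeptidase (chr1:75317588-75317887, minus strand), Khsrp, an RNA-binding protein (chr17:57031458-57031757, minus strand), and Kbtbd3, a Kelch and BTB domain protein (chr9:4309566-4309865, plus strand).
Dnpep: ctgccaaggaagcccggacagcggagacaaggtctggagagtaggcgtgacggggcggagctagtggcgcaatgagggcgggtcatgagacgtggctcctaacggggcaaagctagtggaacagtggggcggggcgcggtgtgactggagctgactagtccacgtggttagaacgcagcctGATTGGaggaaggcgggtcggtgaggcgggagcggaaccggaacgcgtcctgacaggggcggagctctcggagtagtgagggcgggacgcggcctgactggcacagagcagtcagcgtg
Khsrp: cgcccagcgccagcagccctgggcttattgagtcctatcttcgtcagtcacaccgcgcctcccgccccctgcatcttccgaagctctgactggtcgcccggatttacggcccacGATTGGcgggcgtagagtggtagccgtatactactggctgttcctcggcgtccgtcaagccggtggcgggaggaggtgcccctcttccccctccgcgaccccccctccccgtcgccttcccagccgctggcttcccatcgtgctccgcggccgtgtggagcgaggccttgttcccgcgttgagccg
Kbtbd3: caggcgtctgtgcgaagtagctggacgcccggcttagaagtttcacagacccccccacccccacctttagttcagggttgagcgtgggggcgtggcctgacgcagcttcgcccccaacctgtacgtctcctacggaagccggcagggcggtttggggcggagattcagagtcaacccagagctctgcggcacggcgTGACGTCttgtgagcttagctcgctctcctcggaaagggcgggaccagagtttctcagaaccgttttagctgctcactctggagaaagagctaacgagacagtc
The next 3 windows belong to promoters that ranked far higher in the tumour than in the spleen: Lmna, which encodes lamins A and C of the nuclear envelope (chr3:88503303-88503602, minus strand), Slc30a9, a zinc transporter (chr5:67306705-67307004, plus strand), and Lrrc8b, a subunit of volume-regulated anion channels (chr5:105415525-105415824, plus strand).
Lmna: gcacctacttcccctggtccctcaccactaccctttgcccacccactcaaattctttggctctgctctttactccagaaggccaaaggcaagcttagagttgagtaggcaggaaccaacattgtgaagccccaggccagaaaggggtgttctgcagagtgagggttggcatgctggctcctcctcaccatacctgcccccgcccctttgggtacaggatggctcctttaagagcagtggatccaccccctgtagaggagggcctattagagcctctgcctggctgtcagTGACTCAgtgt
Slc30a9: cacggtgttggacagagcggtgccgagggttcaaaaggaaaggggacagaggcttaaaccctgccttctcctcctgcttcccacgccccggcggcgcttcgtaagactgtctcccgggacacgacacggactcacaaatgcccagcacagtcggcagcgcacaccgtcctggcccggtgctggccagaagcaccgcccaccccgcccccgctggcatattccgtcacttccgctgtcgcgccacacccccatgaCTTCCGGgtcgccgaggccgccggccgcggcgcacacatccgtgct
Lrrc8b: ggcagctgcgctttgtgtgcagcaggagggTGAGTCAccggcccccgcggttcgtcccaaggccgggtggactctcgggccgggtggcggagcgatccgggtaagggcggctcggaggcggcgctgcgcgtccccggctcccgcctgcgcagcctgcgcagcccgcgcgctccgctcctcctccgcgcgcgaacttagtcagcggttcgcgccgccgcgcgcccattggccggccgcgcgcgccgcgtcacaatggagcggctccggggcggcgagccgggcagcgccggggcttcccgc
The last 3 windows belong to promoters that ranked far lower in the tumour than in the spleen: Hpgds, the haematopoietic prostaglandin D synthase (chr6:65144681-65144980, minus strand), Hnrnph1, an RNA-binding splicing factor (chr11:50377547-50377846, plus strand), and Tmem144, a transmembrane protein (chr3:79842630-79842929, minus strand).
Hpgds: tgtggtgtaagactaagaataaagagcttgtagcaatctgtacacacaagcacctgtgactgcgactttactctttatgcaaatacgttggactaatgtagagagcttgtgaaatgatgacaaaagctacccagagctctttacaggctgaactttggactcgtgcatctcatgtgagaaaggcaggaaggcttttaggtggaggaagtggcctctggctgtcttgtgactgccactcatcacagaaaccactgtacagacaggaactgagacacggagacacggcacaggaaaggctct
Hnrnph1: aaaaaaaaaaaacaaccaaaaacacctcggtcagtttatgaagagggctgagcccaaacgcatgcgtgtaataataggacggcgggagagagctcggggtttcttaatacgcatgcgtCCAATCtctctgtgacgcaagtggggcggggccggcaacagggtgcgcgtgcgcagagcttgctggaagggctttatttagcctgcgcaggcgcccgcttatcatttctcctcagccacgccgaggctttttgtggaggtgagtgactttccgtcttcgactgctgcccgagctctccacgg
Tmem144: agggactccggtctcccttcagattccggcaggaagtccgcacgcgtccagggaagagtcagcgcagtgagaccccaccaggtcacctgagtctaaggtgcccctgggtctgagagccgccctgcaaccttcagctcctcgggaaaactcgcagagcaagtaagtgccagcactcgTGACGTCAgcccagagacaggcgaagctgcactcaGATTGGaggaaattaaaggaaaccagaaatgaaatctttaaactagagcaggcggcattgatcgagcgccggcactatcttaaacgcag
Dnpep and Khsrp each held 1 NF-Y match and Kbtbd3 held 1 CREB and ATF match. Among the tumour-shifted windows, Lmna and Lrrc8b each held 1 AP-1 match and Slc30a9 held 1 ETS match. Hnrnph1 held 1 NF-Y match, Tmem144 held 1 NF-Y match and 2 overlapping CREB and ATF matches (the same palindrome read on both strands), and Hpgds held no match to the 4 patterns. The Lmna window had 1 CpG and Hpgds had 5, against 51 in Lrrc8b.

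The libraries were of similar depth, with 11293674 tags in the tumour and 11068821 in the spleen, and differed in the shape of their peaks. The caller set every tumour peak 322 bp wide and every spleen peak 869 bp wide, and 11.03% of tumour tags against 4.77% of spleen tags lay in peaks. Its fragment length estimate was 130 bp for the tumour and 190 bp for the spleen. The part of these differences in the results below was not tested. Values are therefore compared as ranks: each pair received the percentile of its normalized tag count (tags in the peak, scaled to one library size) among all pairs in the tumour, and the same in the spleen. With 1 library a tissue no difference between tumour and spleen can be tested against replicate spread, and tissue and library cannot be told apart. Exact 95% Poisson intervals are given for counting error only. A change in the share of cells with a site open cannot be told apart from a change in openness per cell.

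Defining Treg genes were open in both tissues. Foxp3 lies on the X chromosome and is not among the pairs. It had 2 peaks in each library, with normalized tag counts of 65.1 and 45.2 in the tumour and 44.7 and 32.5 in the spleen. Of 6 autosomal Treg and T cell markers, 5 had a pair (Il2ra, Ikzf2, Tnfrsf18, Cd4 and Cd3e), none of their 8 pairs was shifted by the rule given below, and Ctla4 had 3 tumour-only peaks and no pair. The summed tag count of these Treg marker pairs was 354 in the tumour and 224 in the spleen, against 700000 and 427000 over all pairs. Other cells' marker lists had 0 to 3 pairs each. The 5 B cell markers had 0 pairs, 2 tumour-only peaks and 1 spleen-only peak. The 5 CD8 T and NK cell markers had 3 pairs, at Klrb1c and Eomes, with a summed tag count of 117 in the tumour and 106 in the spleen, and Cd8a, Cd8b1 and Ncr1 had none. These markers had 1 tumour-only peak. The 6 myeloid markers had 1 pair (Cebpa, 46.5 in the tumour and 29.8 in the spleen) and 7 tumour-only peaks, at Spi1, Itgam and Adgre1, but no spleen-only peak. The 6 stromal and endothelial markers had 2 pairs (Col1a1 and Pecam1, 53.6 in the tumour and 39.3 in the spleen in sum), 7 tumour-only peaks, all at Pecam1, and 2 spleen-only peaks. The 6 melanocyte and epithelial markers had 3 pairs, at Mitf and Pmel, with a sum of 346 in the tumour and 165 in the spleen, and 1 tumour-only peak. One Pmel pair, inside the gene that encodes a melanosome matrix protein, ranked 38.7 points higher in the tumour. One Klrb1c pair ranked 36.2 points lower in the tumour. The part of other cells in the results was not tested.

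Stronger peaks were more often in a pair in both lists. In the tumour, 90.8% of the strongest 10% of peaks were in a pair, against 26.4% of the 10% just below the median and 7.38% of the weakest 10%. In the spleen the same shares were 99.1%, 87.2% and 57.0%. The normalized tag count of the pairs had a median of 49.6 in the tumour (7.08 to 2415) and 29.4 in the spleen (10.4 to 2026). The peaks outside the pairs had a median of 16.4 in the tumour and 17.2 in the spleen. Among the pairs, which were chosen for touching, the centres of the paired peaks lay a median of 65 bp apart, 82.5% within 150 bp, and in 92.7% of pairs the tumour peak lay wholly inside the wider spleen peak. Just inside the rule, 153 pairs overlapped by 1 to 100 bp and had median tag counts of 33.6 in the tumour and 22.6 in the spleen. Just outside it, 113 spleen-only peaks had a tumour peak within 100 bp, with medians of 34.1 in that tumour neighbour and 23 in the spleen. Only 13 spleen peaks touched 2 tumour peaks, and no tumour peak was in more than 1 pair.

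Gene starts were the largest class among the shared regions. A centre within 1 kb of a protein-coding gene start was found for 50.8% of the pairs (95% exact interval 49.8 to 51.7, 5364 of 10562), against 16.2% of tumour-only peaks (15.6 to 16.8) and 10.8% of spleen-only peaks (9.4 to 12.3). A further 25.4% of pairs lay elsewhere inside a gene, against 45.1% of tumour-only and 48.3% of spleen-only peaks. These starts covered 16456 of the 20661 autosomal protein-coding genes, and the 309 pairs of chromosome 18 were left out because the table used here gave no starts there. On the other autosomes, regions at a start missing from this set were counted as inside or outside genes. By either end of any of the 20661 genes the shares were 54.3% of pairs, 19.2% of tumour-only and 12.2% of spleen-only peaks. The pairs were spread over all autosomes, and held between 78.8% (chromosome 18) and 94.2% (chromosome 19) of a chromosome's spleen peaks. Of the pairs, 33.1% had a tumour-only peak within 10 kb and 2.29% a spleen-only peak.

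**Figure D1:**
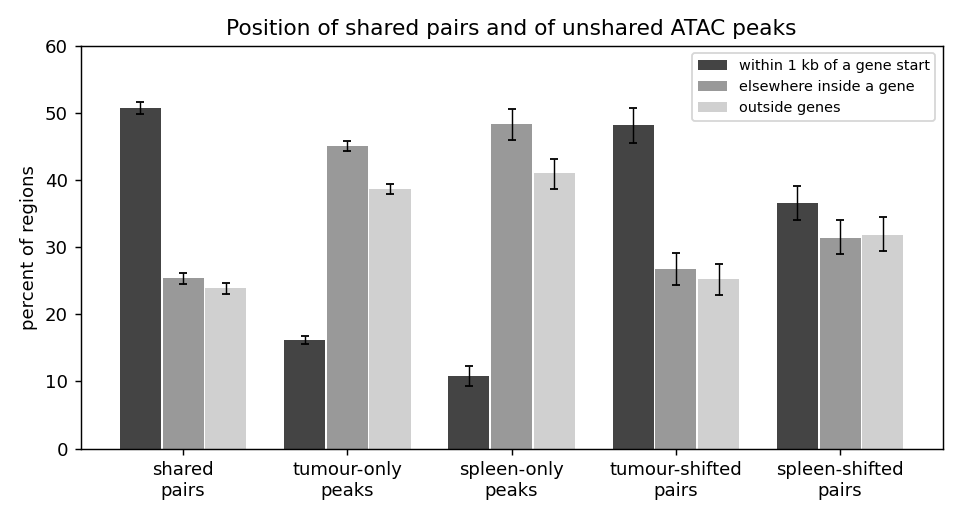
Percent of regions within 1 kb of a gene start, elsewhere inside a gene or outside genes, for shared pairs, unshared peaks and the pairs past 25 points of rank shift. Error bars are exact 95% binomial intervals. Gene starts make up 50.8% of shared pairs, 16.2% of tumour-only and 10.8% of spleen-only peaks.

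Promoter windows at shared peaks differed in composition from the rest of the promoters. A tumour peak of a pair overlapped 4238 of the 20084 windows by at least 150 bp. These had a median GC content of 62.0% and a median of 23 CpG dinucleotides, close to the 1596 windows at tumour-only peaks (63.0% and 22), against 52.0% and 6 in the 12093 windows with no tumour peak. The ETS pattern CCGGAAG was present in 24.9% of windows at shared pairs, against 19.4% at tumour-only peaks and 11.9% of all windows. The NF-Y pattern GATTGG was present in 28.5% at shared pairs, 18.1% at tumour-only peaks and 18.2% of all windows. The CREB and ATF pattern was present in 15.5%, 12.3% and 8.58%, and the SP and KLF pattern GGGCGG in 72.4%, 70.8% and 47.0%. The AP-1 pattern TGANTCA was less common at shared pairs, with 4.2% of windows, 6.52% at tumour-only peaks and 7.06% of all windows. GC content differs between these sets of windows, and its part in the shares was not tested.

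The order of the pairs was broadly alike in tumour and spleen. Spearman's rho between the tag counts was 0.671 over the 10871 pairs, given as a description since the pairs share their libraries and sequence. It was 0.736 over pairs at gene starts, 0.537 inside genes and 0.556 outside genes. The top of the order was shared more than the bottom: 59.8% of the top 10% in the spleen was also in the top 10% in the tumour (652 pairs), against 28.9% for the bottom 10% of each (301 pairs). Of the pairs in the top 10% of both, 79.3% were at gene starts, against 14.7% of the pairs in the bottom 10% of both. The median absolute difference in percentile was 13.7 points, with extremes of -86.3 and 92.9. Counting error is wide on this scale, since a percentile's interval had a median width of 22.4 points in the tumour and 39.3 points in the spleen.

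A difference of more than 25 points was taken as a rank shift. By that rule 1434 pairs (13.2%) ranked higher in the tumour and are called tumour-shifted, 1405 (12.9%) ranked lower in the tumour and are called spleen-shifted, and 26.1% were past 25 points either way. The percentile intervals of the libraries did not overlap for 735 of the tumour-shifted and 880 of the spleen-shifted pairs. The threshold runs through a continuum: 303 pairs lay at 25 to 27 points and 363 at 23 to 25. Tumour-shifted pairs had a median tag count of 68.2 in the tumour and 19 in the spleen, and spleen-shifted pairs had 26.6 in the tumour and 37.0 in the spleen.

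**Figure D2:**
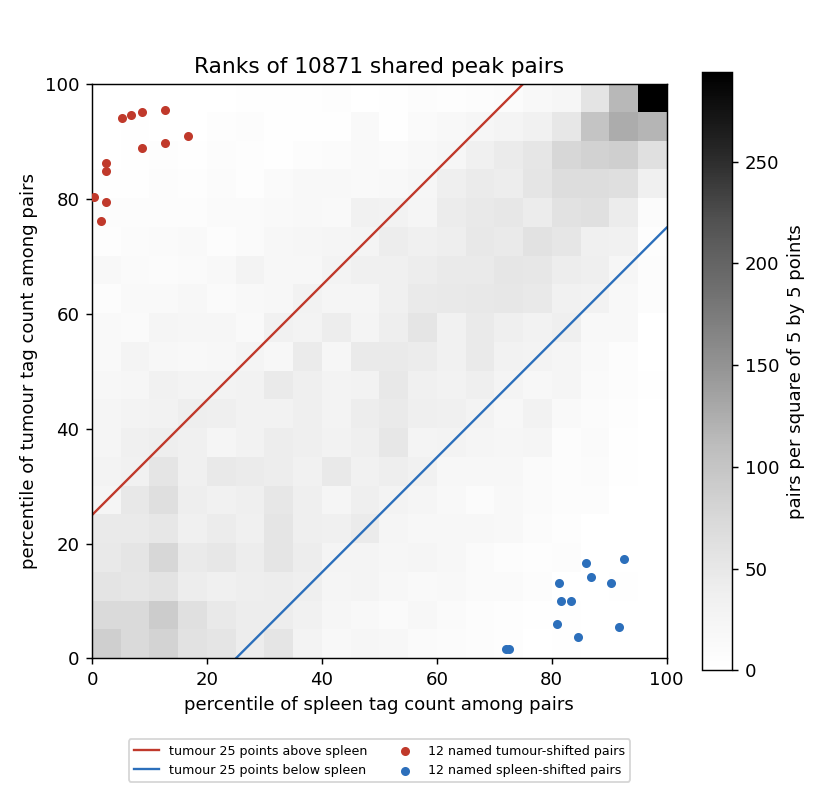
Percentile of each pair's normalized tag count in the tumour (vertical) against the spleen (horizontal), as the number of the 10871 pairs in squares of 5 by 5 points. Lines mark 25 points either way, and points are the 12 named tumour-shifted and 12 named spleen-shifted pairs; the darkest squares lie at the top of both ranks.

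Position and base composition went with the direction of the shift. Gene starts made up 48.2% of tumour-shifted pairs (95% exact interval 45.5 to 50.8) and 36.6% of spleen-shifted pairs (34.1 to 39.2). Both were below the 53.7% (52.6 to 54.8) of pairs within 25 points. Promoter windows of tumour-shifted pairs (564) had a median GC content of 65.0% and 25 CpG, against 55.7% and 17 for those of spleen-shifted pairs (333). The SP and KLF pattern was present in 79.8% of tumour-shifted and 48.0% of spleen-shifted windows, the ETS pattern in 30.9% and 18.6%, and the AP-1 pattern in 7.27% and 3.30%. Other patterns were more common in spleen-shifted windows: NF-Y was present in 20.7% of tumour-shifted and 24.3% of spleen-shifted windows, the TCF and LEF pattern CTTTGAA in 1.77% and 4.8%, and the GATA pattern AGATAA in 3.55% and 6.61%. Over all windows the TCF and LEF pattern was present in 4.45%, the GATA pattern in 9.57% and the AP-1 pattern in 7.06%. The 3341 windows of pairs within 25 points had 73.6% for SP and KLF, 24.5% for ETS and 3.77% for AP-1. They had 30.2% for NF-Y, above both shifted classes, 3.11% for TCF and LEF and 4.7% for GATA. Median distance between the paired centres was 56.5 bp in tumour-shifted and 77.0 bp in spleen-shifted pairs. GC content, peak width and fragment length were not separated from tissue, and their part in these shares was not tested.

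**Figure D3:**
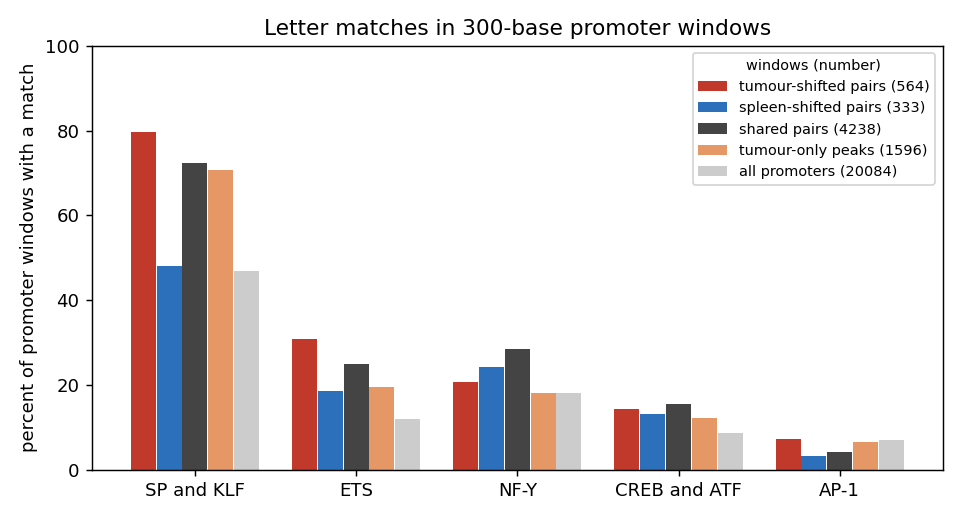
Percent of 300-base promoter windows with a match to each letter pattern, for tumour-shifted, spleen-shifted and all shared pairs, tumour-only peaks and all promoters. The SP and KLF pattern is in 79.8% of tumour-shifted and 48.0% of spleen-shifted windows, and the NF-Y pattern is highest over all shared pairs (28.5%).

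The strongest pairs near genes ranked at the top of both libraries. The 8 named ones had 353.7 to 501.2 normalized tags in the tumour and 258.4 to 408.4 in the spleen, and differed by -0.2 to 0.1 points. Dnpep (chr1:75317170-75318038, 33 bp from the gene start) had 462.6 in the tumour and 325.2 in the spleen. Lnpep, a membrane aminopeptidase, had 395.8 and 408.4, and Khsrp had 392.7 and 353.2. Kbtbd3 had 363.0 in the tumour and 385.3 in the spleen, and Sp4, a zinc-finger factor of the SP family, had 353.7 and 258.4. The pairs at Zbtb20, a zinc-finger repressor (373.2 and 303.6), and Cdca2, a chromosome-associated phosphatase subunit (369.2 and 263.8), lay 160 bp and 27 bp beyond an end of their gene. The nearest starts in the set used lay 371755 bp and 1787926 bp away. That set lacks starts for part of the genes, so these pairs may still lie at a start. The eighth lay inside Chl1, a neural adhesion gene, with 501.2 in the tumour and 287.3 in the spleen. That peak stood 1134.11-fold over its local region in the tumour and 131.03-fold in the spleen, and its centre lay in an H3K9me2 peak of 5 of the 6 libraries. The 2 highest pairs of all had no gene nearby, at chr2:98662233-98663101 and chr2:98666330-98667198, with 1506.6 and 2414.6 in the tumour and 2026.0 and 1984.4 in the spleen. No regions of unusually high signal were removed before pairing. Whether the signals at Chl1 and at these chromosome 2 sites reflect open chromatin was not tested.

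The 12 named tumour-shifted pairs, the largest shifts in or within 5 kb of a protein-coding gene, had 85.4 to 170.9 normalized tags in the tumour and 12.6 to 17.6 in the spleen. Their shifts ran from 74.3 to 88.9 points, and the percentile intervals of the libraries were apart in all 12. In the spleen they rested on 13.9 to 19.5 unscaled tags each. Of the 12 pairs, 10 lay inside a gene and away from known starts. Mcph1, a DNA damage response gene, was the most shifted, with 156.7 in the tumour and 14.9 in the spleen. Nedd9, an adhesion scaffold, had 166.5 in the tumour and 15.8 in the spleen. Regulators of cell cycle, clock and signalling were also among the 12. Cdkn1a, which encodes the cell cycle inhibitor p21, had 123.5 in the tumour and 15.8 in the spleen at 1652 bp from a start. Nr1d1, which encodes the clock repressor REV-ERB alpha, had 126.6 and 16.7, and Spred2, an inhibitor of Ras signalling, had 92.5 and 14. Of the 12, only Lmna and Fosl2 were at a gene start. Lmna, whose promoter is printed above, had 94.7 in the tumour (95% Poisson interval 77.6 to 114.4) and 12.6 in the spleen (6.9 to 21.2). Fosl2, which encodes the AP-1 subunit FRA-2, had 132.8 in the tumour (112.4 to 155.8) and 17.6 in the spleen (10.7 to 27.3) at chr5:32135419-32136287, 619 bp from the start. The others were Prxl2a, Creb3l2 (a stress-response factor), Dhx34 (an RNA helicase), Sipa1l1 and Oxr1. Ranked by fold over the local region instead, the shift turned to -1.5 points for Fosl2 and -7.7 points for Dhx34, and dropped to 12.1 points for Cdkn1a, under the threshold. It was over 1.5 times smaller also for Nedd9 (48.7), Sipa1l1 (47.8), Spred2 (48.1) and Nr1d1 (39.1).

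The 12 named spleen-shifted pairs had 10.2 to 22.6 normalized tags in the tumour and 43.4 to 82.2 in the spleen, with shifts of -86.3 to -68.3 points and intervals apart in all 12. Of these, 11 lay inside a gene away from known starts, and the remaining one, in Cd226, was on chromosome 18. The most shifted lay in Nrxn3, a neural adhesion gene, with 13.3 in the tumour and 79.1 in the spleen. Cblb, an E3 ubiquitin ligase that raises the threshold of T cell activation, had 22.6 in the tumour (95% Poisson interval 14.7 to 33.2) and 82.2 in the spleen (66.2 to 100.9) at chr16:52147094-52147962. This was 1 of 6 Cblb pairs, of which 2 were spleen-shifted and 0 tumour-shifted, with a median shift of -1.98 points. Cd226 (DNAM-1), an activating receptor that shares ligands with TIGIT, had 19.9 in the tumour and 63.7 in the spleen. Several of the 12 genes act in T cells, and others are known from other tissues or all cells. Tagap, a GTPase-activating protein of activated T cells, had 19 in the tumour and 54.2 in the spleen. Drosha, the nuclear nuclease of microRNA maturation, had 13.7 in the tumour and 53.8 in the spleen. The others were Trmt11, Rsu1, Atxn7, Pdlim1, Ap1ar, Oxct1 and Rin2. Ranked by fold over the local region, all 12 stayed past 25 points, at -83.7 to -30.4 points, and the shift was over 1.5 times smaller for Cd226 (-32.7), Pdlim1 (-33.7), Oxct1 (-35.3) and Rin2 (-30.4).

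Genes of the tumour and effector Treg state were more often tumour-shifted than spleen-shifted in this ranking. Of 45 pairs at 22 of 29 autosomal genes, 11 (24.4%) were tumour-shifted and 3 (6.67%) spleen-shifted, against 13.2% and 12.9% of all pairs, yet the list's median shift was -2.15 points (-0.437 over all pairs). Itgav, the integrin alpha V chain that takes part in activating TGF-beta, had the largest shift, with 186.8 in the tumour and 20.8 in the spleen at 26671 bp outside the gene, and a second pair at its start had 57.6 and 17.6. Tnfrsf9 (4-1BB) had 170.0 in the tumour and 25.7 in the spleen inside the gene. Rora, a nuclear receptor, had 98.3 and 22.6, and a pair 13832 bp from Il10, a suppressive cytokine, had 45.2 and 14. Of the genes picked after their values were seen, Prdm1, which encodes BLIMP-1, had 117.8 in the tumour and 34.8 in the spleen at its start (its other pairs shifted by -11.2 and -18.1 points), Ccr8 had 74.8 and 24.8, and Batf had 77.9 and 27.6. The intervals of the libraries were apart for 6 of the 11 tumour-shifted and 2 of the 3 spleen-shifted pairs. Spleen-shifted pairs lay near Tnfrsf1b, Gata3 and Maf. Other pairs ranked lower in the tumour without passing the threshold. The Irf4 pairs shifted by -21.6 and -13.5 points, and the other Tnfrsf9 pair by -14.2 points. Those of Ikzf3 (-19.2), Id2 (-14.1), Gzmb (-11.5) and Klrg1 (-10.0) went the same way. This list's direction depended on the measure: ranked by fold over the local region, 5 pairs (11.1%) were tumour-shifted and 11 (24.4%) spleen-shifted, against 17.8% and 18% of all pairs. The same genes held 116 tumour-only and 3 spleen-only peaks.

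AP-1, BATF and IRF factor genes had 34 pairs, of which 8 (23.5%) were tumour-shifted and 4 (11.8%) spleen-shifted, against 13.2% and 12.9% of all pairs, with a median shift of 1.69 points. Besides Fosl2, Atf3, a stress-induced factor, had 87.7 in the tumour and 19.4 in the spleen 214 bp from its start. A pair 2294 bp outside Bach2, a repressor that competes with AP-1, had 126.2 and 26.7. Irf2 went the other way, with 18.2 in the tumour and 33.0 in the spleen. By fold over the local region 3 (8.82%) were tumour-shifted and 7 (20.6%) spleen-shifted, against 17.8% and 18% of all pairs, and intervals in the first ranking were apart for 6 of the 8 and 2 of the 4. Ranked among all autosomal peaks, 10 (29.4%) were tumour-shifted and 0 spleen-shifted, against 30.4% and 3.22% of all pairs. From the stronger 50% of each list, 7 of 20 (35%) were tumour-shifted and 2 (10%) spleen-shifted, against 15.3% and 15.2%. Bach2, also on the resting and Treg identity lists, held 10 of the 34 pairs. NF-kB factors and regulators had a pair at all 18 genes, 27 in all, with a median percentile of 70.5 in the tumour and 55.4 in the spleen. Of these, 2 (7.41%) were tumour-shifted and 1 (3.70%) spleen-shifted, against 13.2% and 12.9% of all pairs, and the median shift was 5.59 points. From the stronger 50% of each list, 6 of 18 (33.3%) were tumour-shifted, against 15.3% of all pairs there. By fold over the local region 2 (7.41%) were tumour-shifted and 6 (22.2%) spleen-shifted, against 17.8% and 18% of all pairs. Nfkbie, an inhibitor of NF-kB, had 81.0 in the tumour and 18.1 in the spleen, Bcl3, an atypical member of the inhibitor family, had 56.7 and 16.3, and a pair near Tnfaip3, the gene of the NF-kB inhibitor A20, had 17.3 and 24.4.

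Genes of resting Treg and lymphoid homing went the other way in the ranking by tag count among the pairs. Of 50 pairs at 15 of 20 genes, 6 (12.0%) were tumour-shifted and 14 (28.0%) spleen-shifted, against 13.2% and 12.9% of all pairs, and the median shift was -8.20 points. Intervals were apart for 3 of the 6 and 8 of the 14. By fold over the local region 7 (14%) were tumour-shifted and 10 (20%) spleen-shifted, against 17.8% and 18% of all pairs. From the stronger 50% of each list, 5 of 21 (23.8%) were tumour-shifted and 6 (28.6%) spleen-shifted. Both were above the 15.3% and 15.2% of all pairs there. Ranked among all autosomal peaks of each library, 12 (24%) were tumour-shifted and 3 (6%) spleen-shifted, against 30.4% and 3.22% of all pairs. Foxp1, a forkhead factor of quiescent T cells, held 8 pairs, of which 4 were spleen-shifted and none tumour-shifted, the largest with 15.5 in the tumour and 39.8 in the spleen. At some genes pairs went both ways. A pair near S1pr1, the receptor that lets T cells leave lymphoid organs, had 20.4 in the tumour and 38.8 in the spleen, while a second had 84.6 and 23. Cxcr4, a chemokine receptor, had 37.2 in the tumour and 55.1 in the spleen at its start and 48.3 and 19 at a distant pair. Bcl2, a survival gene, had 26.6 in the tumour and 40.2 in the spleen at one of its 2 spleen-shifted pairs. Among genes picked after their values were seen, Id3, an inhibitor of E proteins, had 27.4 in the tumour and 36.6 in the spleen at its start, Lef1 had 39.4 and 43.8, and a pair near Ccr7 had 23.5 and 26.7. Tcf7, the gene of the factor TCF-1, had a tumour-shifted pair with 141.2 in the tumour and 36.6 in the spleen and a spleen-shifted pair with 16.4 and 25.7. Bach2 held the most pairs of any gene, 10, with 1 tumour-shifted, 1 spleen-shifted and a median shift of -7.30 points.

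T cell receptor signalling genes had 64 pairs, with 6 (9.38%) tumour-shifted and 12 (18.8%) spleen-shifted, and a median shift of -6.55 points. The shares over all pairs were 13.2% and 12.9%. By fold over the local region 8 (12.5%) were tumour-shifted and 19 (29.7%) spleen-shifted, against 17.8% and 18% of all pairs. The lean was absent from the stronger 50% of each list, where 4 of 30 (13.3%) were shifted each way, against 15.3% and 15.2% of all pairs there. Ranked among all autosomal peaks, 16 (25%) were tumour-shifted and 1 (1.56%) spleen-shifted, both below the 30.4% and 3.22% of all pairs. Lcp2, the adaptor SLP-76, had the largest tumour shift of the list, 100.5 in the tumour and 15.4 in the spleen, 10414 bp outside the gene. Nr4a1, an immediate early gene of receptor signalling, was tumour-shifted at 2 of its 3 pairs, with 116.4 in the tumour and 22.1 in the spleen inside the gene and 71.3 and 23.9 at its start, and its other pair shifted by 6.9 points. Fyn, a Src family kinase, was tumour-shifted at 3 pairs, the largest with 77.5 in the tumour and 18.1 in the spleen. The Cblb pair given above had the largest shift in the other direction. Genes linked to Treg identity had 40 pairs, with 4 (10%) shifted each way, against 13.2% and 12.9% of all pairs, and a median shift of 1.16 points. From the stronger 50% of each list, 4 of 16 (25%) were tumour-shifted and 0 spleen-shifted, against 15.3% and 15.2% of all pairs there. By fold over the local region 3 (7.5%) were tumour-shifted and 8 (20%) spleen-shifted, against 17.8% and 18% of all pairs. Nt5e, which encodes CD73, had 20.4 in the tumour and 37.0 in the spleen, Swap70 had 15.1 and 28.0, and a pair near Runx1 had 46.9 and 13.6. Interleukin-2 receptor and STAT genes had 28 pairs, with 4 (14.3%) tumour-shifted and 6 (21.4%) spleen-shifted, against 13.2% and 12.9% of all pairs, and a median shift of 5.17 points. Jak1, a kinase of cytokine receptors, had 17.3 in the tumour and 46.5 in the spleen inside the gene and 83.2 and 24.4 at its start, and a further spleen-shifted pair inside the gene had 43.4 and 49.2. Stat6, the factor of interleukin-4 signalling, had 25.2 in the tumour and 37.9 in the spleen. Inhibitory receptors had 20 pairs, with 1 (5%) tumour-shifted, at Cd274 (PD-L1, 38.1 in the tumour and 14 in the spleen), and 3 (15%) spleen-shifted, 1 at Btla and 2 at Vsir (VISTA). Ubiquitous genes had 13 pairs, with 1 (7.69%) tumour-shifted and 3 (23.1%) spleen-shifted. Over all pairs these shares were 13.2% and 12.9%. Over the genes of all lists, marker lists included, intervals were apart for 24 of 41 tumour-shifted and 28 of 47 spleen-shifted pairs. The lists share genes, so their counts are not independent.

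Most genes with a pair had a single one: 6340 of 7944 genes had 1 pair and 68 had 5 or more. Among those with many, chosen after their values were seen, Cdk6, the cell cycle kinase, had 7 pairs with a median shift of 35.4 points, and Itpr2, a calcium channel of the endoplasmic reticulum, had 6 with a median of 26 points. Trio, a guanine nucleotide exchange factor, had 6 pairs with a median of -35.0 points, and Pde4d, a cyclic AMP phosphodiesterase, had 8 with a median of -15 points. The pairs of a gene share its surroundings and are not replicates.

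**Figure D4:**
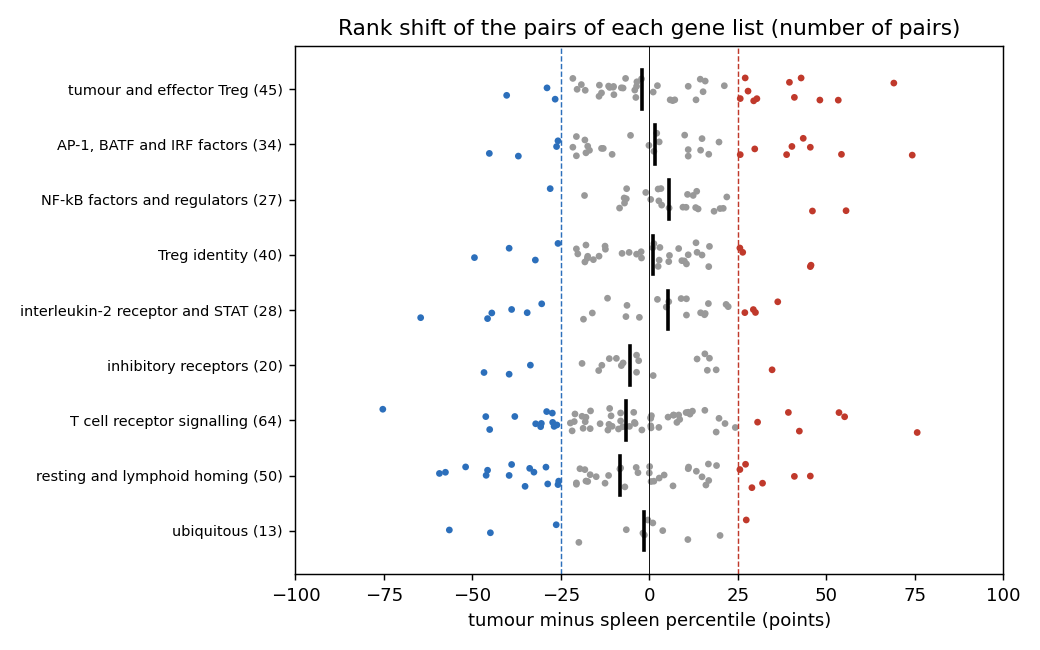
Tumour minus spleen percentile, in points, of every pair assigned to each gene list, with the number of pairs in brackets; black bars are list medians, red points lie above 25 points and blue points below -25. The effector list has 11 red and 3 blue points, and the resting and lymphoid homing list has 6 red and 14 blue.

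H3K9me2 CUT&RUN in tumour Treg is a readout that the choice of pairs did not use. The share of the 5 kb on each side of a spleen peak centre that H3K9me2 peaks covered was 4.36%, 5.08% and 3.88% in the cKO libraries, against 1.77%, 3.46% and 2.80% in the WT libraries. All cKO values were above all WT values: the means were 4.44 ± 0.603% in cKO and 2.68 ± 0.855% in WT (SD, n = 3 each), a difference of 1.76 points, with an exact two-sided permutation p of 0.1, the smallest that 3 against 3 allows. Coverage of the autosomes as a whole was 4.49 ± 0.849% in cKO and 3.73 ± 0.352% in WT (SD, n = 3 each, exact permutation p = 0.3). Divided by it, coverage around the pairs was 1.01 ± 0.169 times the autosomal level in cKO and 0.719 ± 0.221 times in WT (SD, n = 3 each, exact permutation p = 0.3), so in WT all 3 libraries were below their autosomal level. With H3K9me2 lists cut to equal length by keeping the highest scores, the difference was 0.443 points (exact permutation p = 0.7). This cut changed which peaks were kept as well as their number, and the part of either was not tested. The labels do not say whether libraries came from separate mice, so the spread may be technical.

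Coverage changed with distance from the open site. It was higher in the central 1 kb on each side than at 1 to 3 kb, where it was below the level farther out. Within 1 kb of the centre it was 4.97%, 5.81% and 4.59% in cKO, against 2.48%, 4.89% and 4.12% in WT, and at 1 to 3 kb it was 3.97%, 4.55% and 3.56% in cKO, against 1.34%, 2.99% and 2.27% in WT. The centre was higher than the flank in 6 of 6 libraries, by 1.36 points on average (exact two-sided sign-flip permutation p = 0.03125, the smallest 6 libraries allow). The excess was 1.10 ± 0.143 points in cKO and 1.63 ± 0.430 points in WT (SD, n = 3 each). Around tumour-only peaks the same excess was 0.538 points, also in 6 of 6 libraries (exact sign-flip permutation p = 0.03125). H3K9me2 peaks were called with no control library, and the part of background signal at open sites in this excess was not tested. A pair's centre lay in an H3K9me2 peak in 6.81 ± 0.732% of pairs in cKO and 6.36 ± 1.75% in WT (SD, n = 3 each, exact permutation p = 0.9), and which pairs did so varied between libraries. Of the 10871 pairs, 7645 had no H3K9me2 peak at the centre in any library, 2397 had one in 1 library and 4 had one in all 6.

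**Figure D5:**
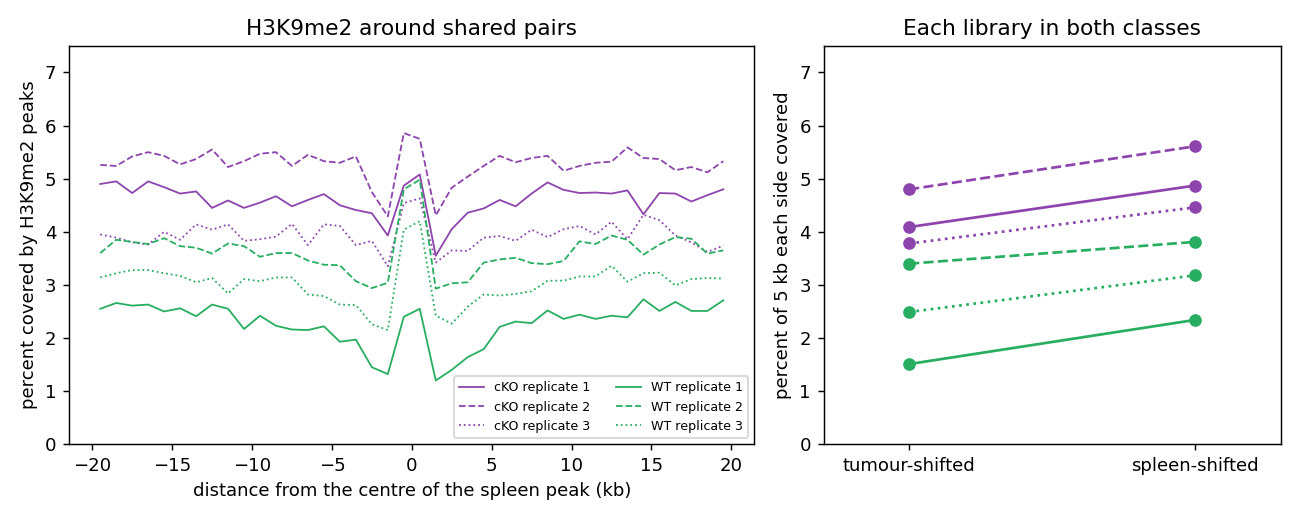
Left, percent of each 1 kb bin covered by H3K9me2 peaks against distance from the spleen peak centre, over all shared pairs, for each cKO and WT library. Right, coverage within 5 kb for tumour-shifted and spleen-shifted pairs, 1 line per library; all 6 lines are lower for tumour-shifted pairs.

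Taken over all positions and the whole 5 kb on each side, shared pairs and tumour-only peaks did not differ in one direction in H3K9me2. Shared minus tumour-only was 0.0739, 0.0496 and 0.153 points in the cKO libraries and -0.274, -0.129 and -0.0895 points in the WT libraries, a mean of -0.0360 over 6 (exact sign-flip permutation p = 0.625). The direction turned to 0.0116 without WT replicate 1, and within 2 kb of the centre shared pairs were higher by 0.249 points (exact sign-flip permutation p = 0.03125). Without the central 1 kb on each side, shared minus tumour-only was -0.203 points (exact sign-flip permutation p = 0.0625). The direction of the mean thus depended on distance from the centre. Among gene starts alone, coverage was higher around shared pairs in 6 of 6 libraries, by 0.262 points (exact sign-flip permutation p = 0.03125). Inside genes it was higher in 5 of 6, by 0.206 points (exact sign-flip permutation p = 0.0625). Outside genes it was higher in 4 of 6, by 0.0279 points (exact sign-flip permutation p = 0.65625). Gene starts made up 50.8% of pairs and 16.2% of tumour-only peaks, and the part of position in the pooled value was not tested. Tumour-shifted pairs had less H3K9me2 around them than spleen-shifted pairs. Coverage was 4.09%, 4.80% and 3.78% around tumour-shifted and 4.87%, 5.61% and 4.46% around spleen-shifted pairs in cKO. In WT it was 1.51%, 3.40% and 2.49% around tumour-shifted and 2.34%, 3.81% and 3.18% around spleen-shifted pairs. The difference was -0.702 ± 0.152 points (SD, n = 6 libraries), lower in 6 of 6 (exact sign-flip permutation p = 0.03125). Within position classes it was -0.894 points at gene starts, -0.351 inside genes and -0.498 outside genes, each lower in 6 of 6 libraries (exact sign-flip permutation p = 0.03125 each). It was -0.757 ± 0.0658 points in cKO and -0.646 ± 0.210 in WT (SD, n = 3 each), which an exact permutation test did not separate (p = 0.7, difference -0.111 points). The sign-flip tests take the sets of regions as fixed. They measure agreement between H3K9me2 libraries, and not spread over regions or over ATAC libraries. Promoter windows of tumour-shifted and spleen-shifted pairs also differed in GC content, whose part in the H3K9me2 difference was not tested.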

How the data were processed

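ATAC was measured in 1 tumour and 1 spleen Treg library, and H3K9me2 CUT&RUN in 3 cKO and 3 WT tumour Treg libraries. The submitters' processing notes name mm10 as the genome and, among the tools, HOMER, SAMtools 1.11, Bowtie2 2.4.2 and Trim Galore 0.6.6. Per the file headers, HOMER called peaks in each library alone with no control library, at a false discovery rate of 0.001 for ATAC, and kept ATAC peaks at least 4-fold over the local 10 kb with a p-value of at most 1.00e-04 there. Per the file headers, the normalized tag count is a signal scaled to 10000000 tags, the findPeaks Score is the caller's score, fold over the local region is a ratio, and the focus ratio is a fraction. No source used here says whether tags were shifted for the transposase. The deposited H3K9me2 lists, with a tag count signal and a score, held 24.4% to 43.9% of the peaks their headers count, by a filter the headers do not state. CUT&RUN libraries held 24774509 to 30313851 tags.

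Percentiles, overlaps and coverage were computed with Python 3.11.15, numpy 2.4.6, pandas 2.3.3 and scipy 1.17.1, drawn with matplotlib 3.10.9, and the code was tested on simulated peaks. A pair belonged to the protein-coding gene whose span held its spleen peak centre, or else to the nearest within 50 kb. Gene spans and starts came from RefSeq on GRCm38.p6. Promoter windows were searched for 12 letter patterns. Autosomal coverage used the standard mm10 chromosome lengths. Named are the 12 largest shifts each way and the 8 pairs strongest in both libraries, in or within 5 kb of a protein-coding gene, 1 per gene, predicted genes left out, and up to 4 genes per list by absolute shift. The pairs, the lists and these rules were chosen with earlier results of these data known. Intervals cover counting error only, since tags are not independent molecules. H3K9me2 was compared by exact permutation over libraries. Alternatives changed the overlap, peak strength, measure ranked, threshold, window, scaling and libraries used.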

Additional observations from a re-analysis of the deposited data

Results flagged for a closer look

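Taken over all positions, H3K9me2 coverage around shared pairs relative to tumour-only peaks went opposite ways in the genotypes. It was higher in each of the 3 cKO libraries (0.0739, 0.0496 and 0.153 points) and lower in each of the 3 WT libraries (-0.274, -0.129 and -0.0895 points). The cKO minus WT difference was 0.256 points (exact permutation p = 0.1, the smallest possible with 3 against 3). The values are small beside the 4.44% and 2.68% covered in cKO and WT. The opposite signs did not hold within position classes. The WT values were 0.00723, 0.0637 and 0.282 points at gene starts and -0.0369, 0.165 and 0.124 inside genes. Outside genes they were -0.221, 0.00221 and -0.0167. All cKO values were positive in each class. The cKO minus WT difference was 0.289, 0.244 and 0.213 points in these classes (exact permutation p = 0.1 each).

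Outside the autosomal rule, 258 further pairs lay on the X chromosome, among them those at Foxp3, and 10 lay on unplaced scaffolds.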

How the results depend on the processing

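The number of pairs was 5829 from the stronger 50% of each list, and rho was then 0.607 (0.538 ranked by fold over the local region). Tumour-shifted and spleen-shifted counts were 894 and 887 from the stronger 50%, 2510 and 2568 at 15 points, 797 and 719 at 35 points, and 3306 and 350 ranked among all autosomal peaks of a library. Of all pairs, 30.4% were then tumour-shifted and 3.22% spleen-shifted. Gene starts made up 62.9% of pairs from the stronger 50%, 48.0% within 500 bp, 53.0% within 2.5 kb and 54.3% by either end of a gene. Shared minus tumour-only H3K9me2 reversed to 0.249 points within 2 kb (exact sign-flip permutation p = 0.03125), was -0.0980 within 20 kb (p = 0.03125 by the same exact test), and ran from -0.0738 to 0.0116 with 1 library left out, above 0 only without WT replicate 1. Tumour-shifted minus spleen-shifted coverage ran from -0.759 to -0.676 with 1 library left out, where 5 libraries cannot give an exact permutation p under 0.0625, and kept its direction and p in the other alternatives. The cKO minus WT difference ran from 1.31 to 2.16 points with 1 library left out, and was 1.76 (exact p = 0.25) with a replicate block. The correlations of same-numbered cKO and WT libraries were -0.0084, -0.0008 and 0.0086, and those of other-numbered ones ran from -0.009 to 0.0099. With all of them so small, they cannot decide whether the numbers pair the libraries. Fold over the local region reversed the Fosl2 (-1.5 points) and Dhx34 (-7.7 points) shifts, 2 of the 24 named ones. Rankings within position classes, the gene-end measure, windows without the central 1 kb, and runs without the 12 pairs in H3K9me2 peaks of 5 or 6 libraries were chosen after seeing the data. The causes of these changes were not tested, and 1 ATAC library a tissue limits all rank shifts.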

Other observations

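The 2 strongest pairs, at chr2:98662233-98663101 and chr2:98666330-98667198, stood only 8.00-fold and 15.27-fold over their local region in the tumour and 6.14-fold and 5.94-fold in the spleen. Their centres lay in an H3K9me2 peak of 3 and 5 of the 6 libraries. The 4 pairs with an H3K9me2 peak at the centre in all 6 libraries lay at chr12:3109536-3110404, at chr11:109011423-109012291, near Rpusd4 on chromosome 9 and near Otulin on chromosome 15, and had 63.3 to 422.8 normalized tags in the tumour and 19 to 143.6 in the spleen.

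The direction of rank shifts varied between chromosomes. On chromosome 13, 9.59% of pairs were tumour-shifted and 20.2% spleen-shifted, against 16.2% and 8.65% on chromosome 5 and 14.7% and 7.82% on chromosome 19. The extremes were picked after their values were seen, and no test was made.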
